A study of Mus musculus with 12 samples.

Results

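The genes described here are 40 markers of ependymal cells and of motile cilia, chosen by name from a list that covers the transcription factors, axonemal dyneins, radial spokes, central apparatus and other parts of the beating cilium, together with a few ependymal and choroid plexus genes. All 40 were found in the deposited table of 56791 gene names. All 40 also reached a mean of 1 FPKM (FPKM corrects a fragment count for the length of the gene and the size of the library), the minimum for testing, which 17540 genes passed. RNA was sequenced from hippocampal astrocytes of adult naive male mice, sorted by fluorescence on the astrocyte surface antigen ACSA-2. The group labelled cKO carried GfapcreERT2 and Tnfrsf1bfl/fl, that is, a Cre that can be induced and is driven by Gfap, with floxed alleles of the TNF receptor gene Tnfrsf1b; the group labelled Ctrl carried Tnfrsf1bfl/fl without Cre. The Gfap promoter is active in astrocytes and in adult neural stem cells. Each genotype had 3 A numbers, A1, A2 and A8 for Ctrl and A4, A9 and A10 for cKO, and each A number had an S1 and an S2 library, which were averaged, so n is 3 per genotype. The labels do not say what an A number is, so p-values measure only the spread between A numbers.

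Ependymal cells line the brain ventricles and carry tufts of motile cilia that move cerebrospinal fluid, and the hippocampus borders the lateral ventricle. A motile cilium has an axoneme, a ring of microtubule doublets around a central pair; dynein arms on the doublets drive sliding, and radial spokes, nexin links and the central apparatus control it. FOXJ1 is the main transcription factor of the motile cilium programme, and factors of the RFX family act with it through a promoter element called the X-box. Astrocytes carry a solitary primary cilium, which is built by the general ciliary transport machinery and lacks the motility apparatus.

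Because the RFX element is known from many motile cilium genes, their promoter windows are described first. RefSeq windows (GRCm38.p6) running from 250 bases before to 50 bases after the annotated start were found for 31 of the 40 genes. The X-box consensus of RFX factors, searched on both strands with a spacer of 0 to 3 bases between its arms, was present in 5 of these 31 genes (16.1%), against 1.75% of all 27025 genes with a window. The letters GTTGCC, an arm of that element, were present on either strand in 14 of the 31 (45.2%), against 14.1% of all genes, and 4 of the 5 windows with an X-box match were among the 14. They were those of Rfx2, Rfx3, Dynlrb2, Spag6l, Spag16, Hydin, Drc1, Cfap44, Ak9, Tekt1, Tekt4, Zmynd10, Ccdc153 and Pifo. A forkhead core, TGTTTAC, was present in 2 of the 31 (Cfap43 and Ak7; 6.45%), against 4.05% of all genes. A match is a description of the letters in the window and not evidence of binding. The 5 windows with an X-box match are shown 5′ to 3′ with the match in capitals, because these genes span the dynein, central pair and microtubule-associated parts of the axoneme.

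Dynlrb2, chr8:116504765-116505064, plus strand: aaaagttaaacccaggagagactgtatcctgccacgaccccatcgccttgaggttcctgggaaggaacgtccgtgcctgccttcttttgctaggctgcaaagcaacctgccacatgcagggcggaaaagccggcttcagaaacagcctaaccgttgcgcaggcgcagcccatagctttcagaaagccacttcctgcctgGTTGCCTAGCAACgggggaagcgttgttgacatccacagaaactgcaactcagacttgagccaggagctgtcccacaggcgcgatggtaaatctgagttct
Spag16, chr1:69826720-69827019, plus strand: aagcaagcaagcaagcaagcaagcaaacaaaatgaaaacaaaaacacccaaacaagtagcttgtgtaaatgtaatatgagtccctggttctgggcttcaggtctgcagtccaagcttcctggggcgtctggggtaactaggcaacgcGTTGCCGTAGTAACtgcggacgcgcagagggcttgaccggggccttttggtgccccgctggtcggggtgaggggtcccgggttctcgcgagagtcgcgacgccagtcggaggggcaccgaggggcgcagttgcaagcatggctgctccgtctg
Hydin, chr8:110266727-110267026, plus strand: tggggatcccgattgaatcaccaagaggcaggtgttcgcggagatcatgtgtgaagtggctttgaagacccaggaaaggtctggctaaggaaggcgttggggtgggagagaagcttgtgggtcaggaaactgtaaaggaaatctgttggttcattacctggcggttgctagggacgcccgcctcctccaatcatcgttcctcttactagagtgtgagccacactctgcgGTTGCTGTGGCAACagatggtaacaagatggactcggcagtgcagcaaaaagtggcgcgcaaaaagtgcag
Cfap44, chr16:44394549-44394848, plus strand: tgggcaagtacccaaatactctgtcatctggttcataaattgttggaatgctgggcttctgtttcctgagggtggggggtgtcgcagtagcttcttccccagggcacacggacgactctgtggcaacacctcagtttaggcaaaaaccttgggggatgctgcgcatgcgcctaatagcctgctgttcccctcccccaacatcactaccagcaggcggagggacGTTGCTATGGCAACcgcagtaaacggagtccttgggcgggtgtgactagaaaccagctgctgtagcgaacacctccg
Cfap45, chr1:172520880-172521179, plus strand: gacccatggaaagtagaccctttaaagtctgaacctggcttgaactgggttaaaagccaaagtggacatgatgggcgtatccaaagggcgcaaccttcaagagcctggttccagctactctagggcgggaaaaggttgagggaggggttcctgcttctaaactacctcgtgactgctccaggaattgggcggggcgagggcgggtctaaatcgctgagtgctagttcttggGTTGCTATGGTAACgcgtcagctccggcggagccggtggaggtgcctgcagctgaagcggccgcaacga

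The X-box match began 19 bases before the annotated start in Cfap45, 21 in Hydin, 27 in Cfap44, 51 in Dynlrb2 and 103 in Spag16. Rfx3, which is shown for contrast because its level did not follow the other genes, had the arm GTTGCC, in capitals, beginning 31 bases after its start and no full X-box match.

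Rfx3, chr19:28011117-28011416, minus strand: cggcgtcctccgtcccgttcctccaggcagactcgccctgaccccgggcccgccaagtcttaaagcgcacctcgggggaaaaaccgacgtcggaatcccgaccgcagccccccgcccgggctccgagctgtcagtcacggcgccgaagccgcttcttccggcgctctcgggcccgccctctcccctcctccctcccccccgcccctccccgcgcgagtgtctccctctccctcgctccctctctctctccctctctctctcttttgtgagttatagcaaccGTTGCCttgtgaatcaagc

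Facts of the whole series that bear on these genes were as follows. The depth worked out from the spacing of low values was 17311872 to 35323324 reads per library, a scale that may count a read pair as 2. Of the 480 values of the 40 genes in 12 libraries, 2 were at or under a floor of 3 reads, both of Tekt4. S1 and S2 of an A number differed by a median of 0.07 on the log2(FPKM + 1) scale over these genes, and by at most 0.86 (Meig1 in A9). The targeted gene Tnfrsf1b was listed at 0 in 9 of the 12 libraries and was highest in A4, which is labelled cKO (0.119 and 0.163 FPKM), so its level did not check the genotype labels. Gene positions are given as in the deposited table. Its build is not stated in the header, and the submitters' processing notes name mm10 and GRCm38. Of the 40 genes, 1 had the start and end of GENCODE M21 on GRCm38. The promoter windows above are on GRCm38.p6, so their positions cannot be compared with these gene positions. For Hydin the window starts at 110266727 and the gene, as deposited, at 110993609.

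The genes moved together across the 6 A numbers, and the pattern did not follow genotype. Levels were highest in A1 and A2, both Ctrl, intermediate in A10 and A4, both cKO, and lowest in A8, a Ctrl, and A9, a cKO. The median of the 40 genes on the log2(FPKM + 1) scale was 3.86 in A1, 3.62 in A2 and 2.25 in A8, and 3.15 in A4, 1.88 in A9 and 3.46 in A10. The summed level of the 39 genes other than Ttr was 712 FPKM in A1, 617 in A2, 190.0 in A8, 414 in A4, 179 in A9 and 487 in A10. A8 and A9 were the lowest pair in 36 of the 40 genes, whereas this held for 13.9% of all genes tested. The exceptions were Rfx2, Rfx3, Mia and Ttr. The number of genes at 1 FPKM or more moved with this pattern: it was 15743 and 15933 in the libraries of A8 and 16139 and 16354 in those of A9, against 16740 to 17452 in the other libraries. Its part in the result was not tested. In bulk RNA, fewer ependymal cells and less RNA per ependymal cell cannot be told apart.

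**Figure D1:**
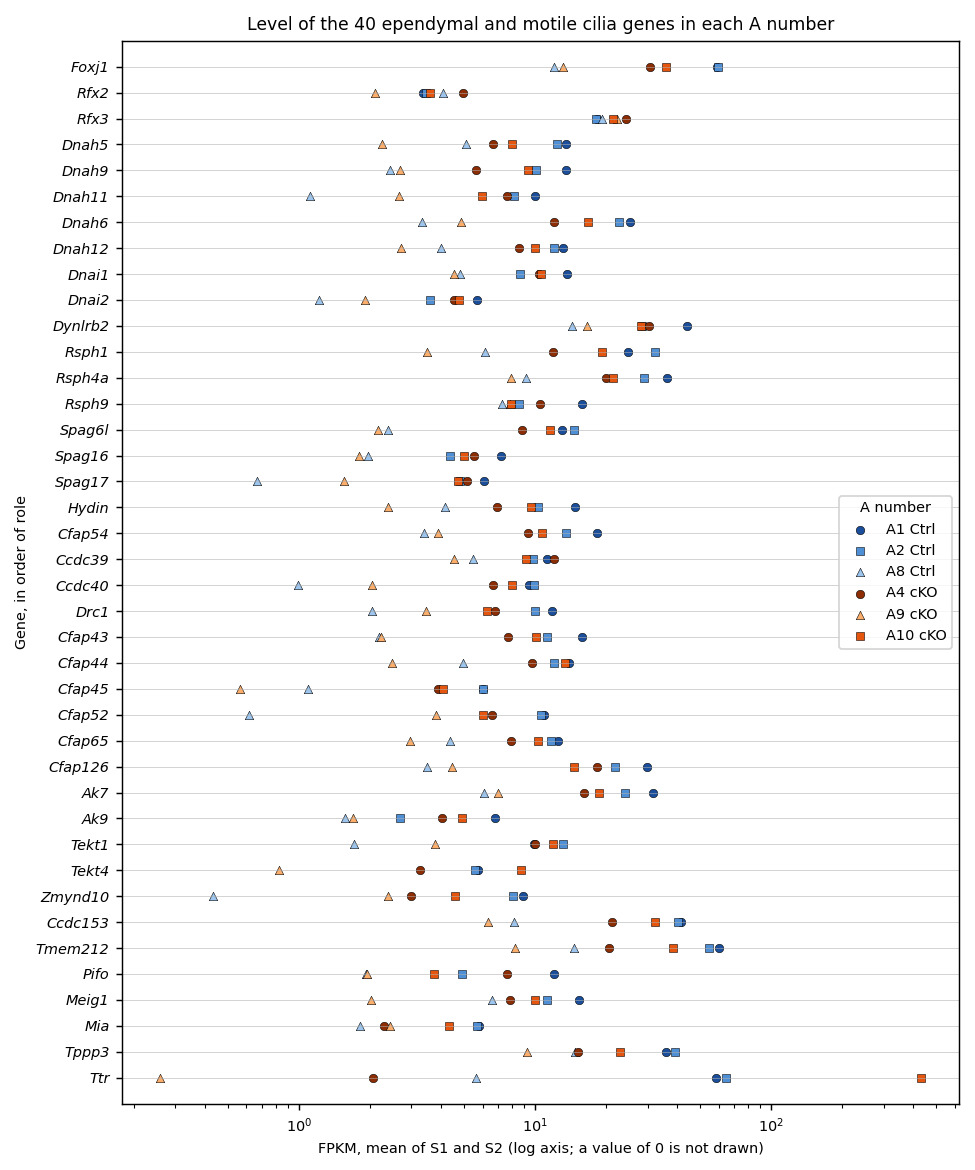
Level of each of the 40 genes in FPKM (mean of S1 and S2, log axis) in the 6 A numbers, with blue symbols for Ctrl and brown or orange symbols for cKO. The triangles, A8 (Ctrl) and A9 (cKO), are the lowest pair in 36 of the 40 genes; Tekt4 in A8, at 0, is not drawn.

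Foxj1 (ENSMUSG00000034227, chromosome 11, start 116221530, end 116226225) showed the pattern plainly. In S1 and S2 its level was 60.0 and 58.5 FPKM in A1, 60.6 and 58.5 in A2 and 12.7 and 11.3 in A8. In the cKO libraries it was 31.8 and 29.7 FPKM in A4, 13.3 and 13.1 in A9 and 36.2 and 35.9 in A10. The Ctrl values lay on both sides of all cKO values, and the mean of Ctrl was 43.6 ± 27.4 FPKM and that of cKO 26.7 ± 11.9 (SD over 3 A numbers). The difference in limma, cKO minus Ctrl, was -0.50 on the log2 scale (standard error 0.66, adjusted p = 0.929; exact permutation p = 0.6, two-sided, where 0.1 is the smallest that 3 against 3 allows).

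The 2 RFX factors on the list behaved unlike Foxj1. Rfx3 (chromosome 19, start 27739121, end 27988566), which regulates ciliogenesis in many cell types, was 18.3 FPKM in A1, 18.1 in A2 and 19.2 in A8, and 24.2 in A4, 22.3 in A9 and 21.4 in A10. All 3 cKO values lay above all 3 Ctrl values, as in 5.76% of all genes tested. The log2 fold change was 0.28 (SE 0.11), with an unadjusted p of 0.0432 and a limma adjusted p of 0.629, so the difference did not pass the threshold of 0.05. Rfx2, a motile cilia regulator, was 3.36, 3.45 and 4.06 FPKM in A1, A2 and A8 and 4.98, 2.10 and 3.61 in A4, A9 and A10, and limma gave -0.07 on the log2 scale (standard error 0.27, adjusted p = 0.982). Its highest value, in A4, was 2.37 times its lowest, in A9, and that ratio was 1.34 for Rfx3 against a median of 5.72 over the 39 genes above 0 in every A number.

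The axonemal dynein heavy chains, the motors of the cilium, followed Foxj1 closely, with r from 0.91 to 0.99 over the 6 A numbers. Among the outer arm chains, Dnah5 (chromosome 15, start 28203898, end 28472198) was 13.6 FPKM in A1, 12.4 in A2 and 5.13 in A8, and 6.62 in A4, 2.25 in A9 and 7.98 in A10. Its difference in limma, cKO minus Ctrl, was -0.81 on the log2 scale (standard error 0.48, adjusted p = 0.784), and A8 lay inside the cKO range. Dnah9 ran from 2.43 FPKM in A8 to 13.6 in A1, and Dnah11 from 1.12 in A8 to 9.96 in A1. The inner arm chain Dnah6 was the most abundant of the 5, from 3.32 FPKM in A8 to 25.3 in A1, and Dnah12, also of the inner arm, ran from 2.71 in A9 to 13.1 in A1. The fold change of the 5 chains ranged from -0.81 to 0.01 on the log2 scale, with limma adjusted p from 0.784 to 0.999.

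The smaller dynein chains spanned a ratio of 3.01 to 4.66 between the highest and lowest A number, against 4.84 to 8.91 for the heavy chains. The outer arm intermediate chain Dnai1 ran from 4.55 FPKM in A9 to 13.7 in A1. Its partner Dnai2 was 5.71, 3.59 and 1.22 FPKM in A1, A2 and A8 and 4.54, 1.90 and 4.78 in A4, A9 and A10 (limma: 0.15 on the log2 scale, standard error 0.46, adjusted p = 0.978). The roadblock light chain Dynlrb2, at a mean of 27.0 FPKM over the 12 libraries, was 44.1 FPKM in A1 and 14.4 in A8. Zmynd10, a cytoplasmic factor that preassembles dynein arms, spanned the most of the genes above 0 in every A number other than Ttr, with 8.93 FPKM in A1 against 0.434 in A8, a ratio of 20.6. In A8 that level rested on 25 reads in S1 and 18 in S2.

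The radial spoke heads and the central apparatus gave the same picture, apart from Rsph9. The spoke head gene Rsph1 (chromosome 17, start 31473993, end 31496357) was 24.9, 32.2 and 6.17 FPKM in A1, A2 and A8 and 11.9, 3.48 and 19.3 in A4, A9 and A10 (limma: -0.80 on the log2 scale, standard error 0.73, adjusted p = 0.88). Rsph4a ran from 7.89 FPKM in A9 to 36.4 in A1, whereas Rsph9 stayed between 7.23 in A8 and 15.9 in A1. Of the central apparatus genes, Hydin (chromosome 8, start 110993609, end 111336885), whose X-box is printed above, was 14.8, 10.3 and 4.16 FPKM in A1, A2 and A8 and 6.91, 2.38 and 9.63 in A4, A9 and A10. Its difference in limma, cKO minus Ctrl, was -0.57 on the log2 scale (standard error 0.54, adjusted p = 0.891). Spag17 was 0.662 FPKM in A8 and 6.08 in A1. Spag16 ran from 1.80 to 7.19, Cfap54 from 3.38 to 18.3 and Spag6l from 2.17 to 14.7 FPKM; Spag6l has a close paralog, Spag6, so its reads may be shared.

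The doublet-associated genes varied over a wide span. Ccdc40 and Ccdc39 encode the ruler that sets the spacing along the doublet. Ccdc40 ran from 0.995 FPKM in A8 to 9.88 in A2, a ratio of 9.93, and Ccdc39 from 4.54 in A9 to 12 in A4, a ratio of 2.63. Drc1, of the nexin-dynein regulatory complex, ran from 2.05 in A8 to 11.8 in A1. Cfap43 and Cfap44, of the tether complex of the inner arms, reached 15.8 and 13.9 FPKM in A1 and their lowest levels at 2.19 in A8 and 2.49 in A9. The microtubule inner proteins Cfap45 and Cfap52 were 0.566 FPKM in A9 and 0.615 in A8 at their lowest, against 6.04 in A2 and 10.9 in A1. Cfap65 ran from 2.95 to 12.5 and Cfap126, which helps place basal bodies, from 3.49 to 29.9 FPKM. The adenylate kinases, which supply nucleotide energy, ran from 6.10 to 31.6 FPKM for Ak7 and from 1.57 to 6.77 for Ak9.

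Both tektins, filament proteins of the doublet, had a fold change above 0, as did Rfx3, Dnah11, Dnai2, Spag17, Cfap52 and Ak9. Tekt4 (chromosome 17, start 25673589, end 25695576) was listed at 0 in both A8 libraries, where 3 reads would be 0.0766 FPKM in S1 and 0.0477 in S2. In the other A numbers it was 5.72 FPKM in A1 and 5.56 in A2, and 3.26 in A4, 0.821 in A9 and 8.71 in A10. The difference in limma, cKO minus Ctrl, was 0.26 on the log2 scale (standard error 0.89, adjusted p = 0.979). Tekt1 was not at 0 in any library and ran from 1.72 FPKM in A8 to 13.1 in A2.

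The remaining genes are ependymal markers with varied or less defined roles. Ccdc153 (chromosome 9, start 44151973, end 44158603) was 41.5, 40.3 and 8.15 FPKM in A1, A2 and A8 and 21.2, 6.32 and 32.2 in A4, A9 and A10 (limma: -0.53 on the log2 scale, standard error 0.75, adjusted p = 0.936). Tmem212 (chromosome 3, start 27920215, end 27950517) was 60.4, 54.8 and 14.6 FPKM in the Ctrl A numbers and 20.6, 8.22 and 38.5 in the cKO ones (limma: -0.92 on the log2 scale, standard error 0.68, adjusted p = 0.849). Both genes were highest in A1 and A2, and A8 lay inside the cKO range. Tppp3 (chromosome 8, start 106194125, end 106198158), a microtubule-bundling protein, was 35.9, 39.3 and 14.8 FPKM in Ctrl and 15.2, 9.28 and 22.9 in cKO; its adjusted p was the smallest of these 7 genes (limma: -0.86 on the log2 scale, standard error 0.44, adjusted p = 0.73). Meig1 was 15.3, 11.3 and 6.59 FPKM in Ctrl and 7.81, 2.02 and 10 in cKO (limma: -0.81 on the log2 scale, standard error 0.53, adjusted p = 0.828). Pifo ran from 1.92 FPKM in A8 to 12.1 in A1. Mia, a small secreted protein, ran from 1.82 FPKM in A8 to 5.81 in A1.

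**Figure D2:**
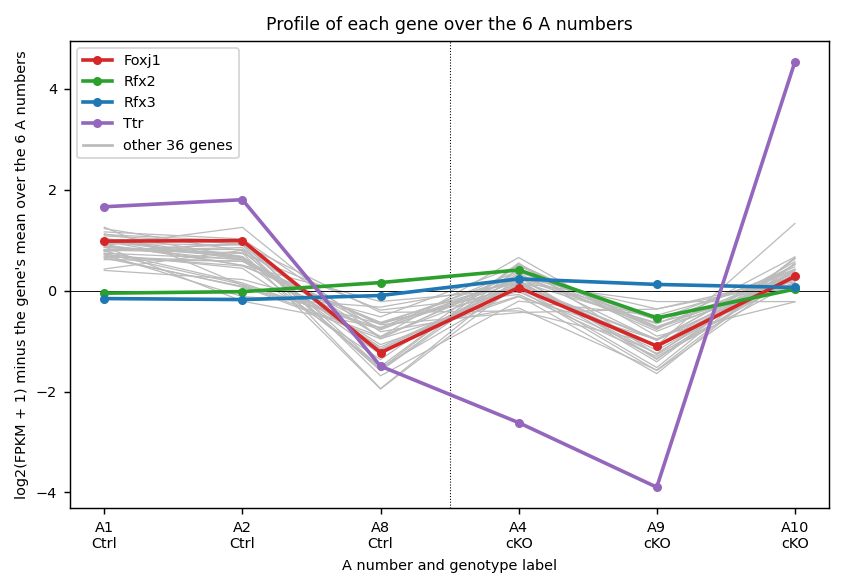
Each line is a gene, plotted as log2(FPKM + 1) minus its own mean over the 6 A numbers, with Ctrl to the left of the dotted line and cKO to the right. Foxj1 and most of the 36 grey lines dip in A8 and A9, Rfx3 varies little, Rfx2 is highest in A4 and lowest in A9, and Ttr peaks in A10.

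How closely the genes moved together was described by Pearson's r over the 6 A numbers, with no p because the genes were chosen as a group. The points share libraries and the same FPKM scale. Over the 780 pairs of the 40 genes the median r was 0.88, and 43.2% of pairs reached 0.9; the median over all pairs of genes tested was 0.01. Of the 39 other genes, 25 had an r of at least 0.9 with Foxj1, whereas 4.45% of all other genes tested did. The highest were Dnah6, Cfap54 and Ak7, each at 0.99 (Spearman's rho 0.94 for each). The lowest were Rfx3 at -0.39, Rfx2 at 0.24, Rsph9 at 0.63 and Ttr at 0.69. Without A8 and A9, the A numbers farthest from the median of Foxj1, the median r of the 39 genes with Foxj1 was 0.86 instead of 0.92 over the 4 remaining A numbers. It was then at least 0.9 in 18 of the 39 genes and under 0.5 in 14. These 14 were Rfx2, Rfx3, Rsph9 and Ttr, and also Dnai1, Dnai2, Dynlrb2, Spag16, Spag17, Ccdc39, Ak9, Tekt1, Tekt4 and Pifo, for which the relation rested on A8 and A9; Ccdc39 was at -0.18 and Dnai2 at -0.06. On deviations from the genotype means the median r with Foxj1 was 0.96, so the genes moved together within genotypes as well. In Foxj1, A8 lay far below the other Ctrl and A9 below the other cKO A numbers, so this value rests largely on A8 and A9. Among the other 4 A numbers Foxj1 was higher in A1 and A2 (Ctrl) than in A4 and A10 (cKO), so the r over these holds the genotype difference.

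**Figure D3:**
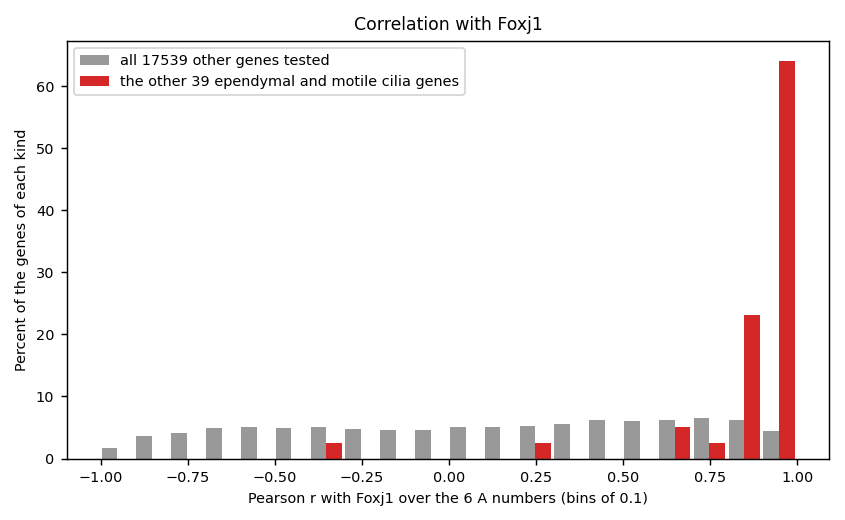
Percent of genes by Pearson's r with Foxj1 over the 6 A numbers, in bins of 0.1; grey bars are all 17539 other genes tested and red bars the other 39 ependymal and motile cilia genes. The red bars pile up in the last bin, with 25 genes at 0.9 or more.

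The genotype comparison asked whether these transcripts differed between cKO and Ctrl. None of the 40 had a limma adjusted p under 0.05 (smallest 0.629, Rfx3), as for 0% of the 17540 genes tested. At an unadjusted p under 0.05 there was 1 of the 40, Rfx3, against 7.69% of all genes. The cKO values lay wholly below the Ctrl values in 0 of the 40 genes, against 7.22% of all genes. The fold change was below 0 in 32 genes and above 0 in 8, with a median of -0.32 on the log2 scale, beside -0.01 over all genes tested. These genes are not independent of each other, because they moved together. Oligodendrocyte markers differed beside them: 12 of 12 were lower in cKO at an unadjusted p under 0.05, with a median log2 fold change of -1.76 and a smallest limma adjusted p of 0.32, and their part in the result was not tested. The median standard error of the 40 ependymal and motile cilia genes was 0.60, against 0.27 for all genes. The median SD of these 40 genes between A numbers was 1.09 in Ctrl and 0.75 in cKO, against 0.33 and 0.23 for all genes.

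**Figure D4:**
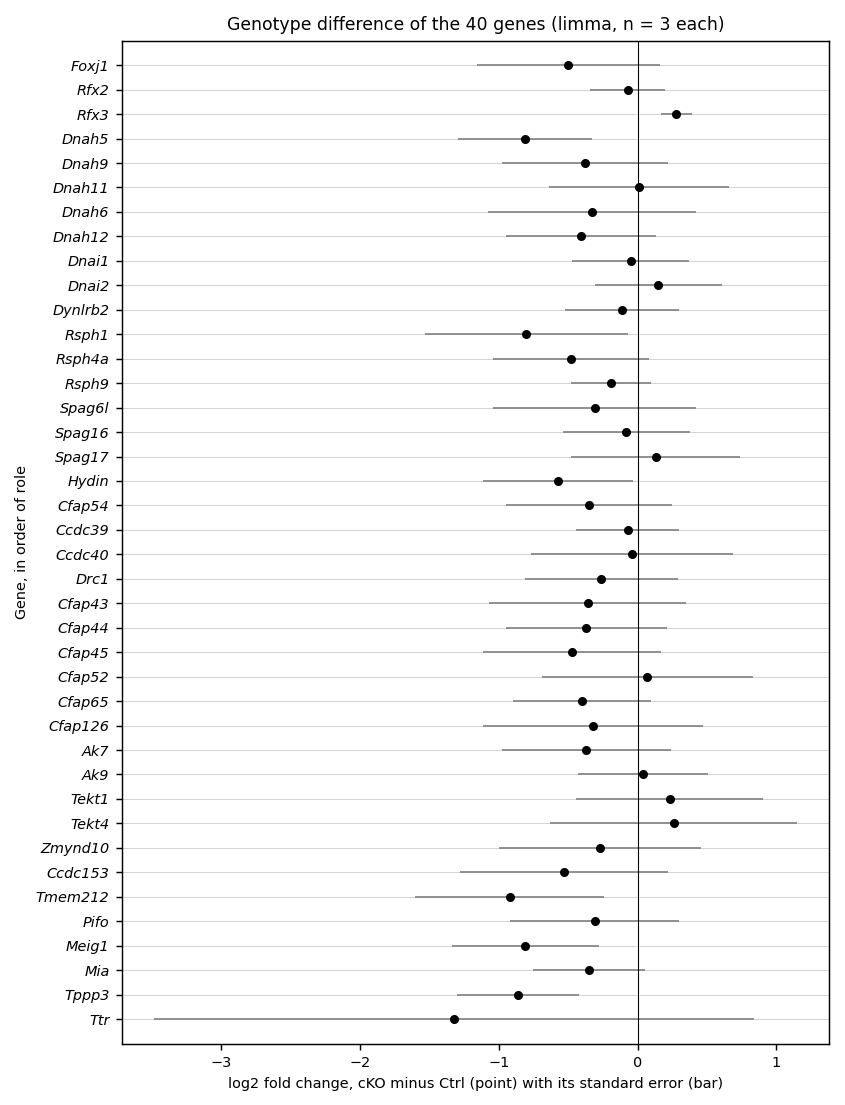
Log2 fold change of each gene, cKO minus Ctrl, from limma (points) with its standard error (bars), n = 3 per genotype. Points lie below 0 for 32 of the 40 genes, and 0 genes passed the adjusted threshold.

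The median fold change rested on single A numbers. Without A8 it was -0.90, and 10 of the 40 genes had an unadjusted p under 0.05, 9 of them lower in cKO, against 13.9% of all genes in that fit; the smallest limma adjusted p of the 40 was 0.17. Those 10 were Foxj1, Rfx3, Dnah5, Drc1, Cfap52, Ak7, Zmynd10, Tmem212, Mia and Tppp3. The median was -0.59 without A10, 0.09 without A1, -0.12 without A2 and 0.12 without A9. The tally of directions turned with it: 16 genes were below 0 and 24 above without A1, and 12 below and 28 above without A9, against 39 below and 1 above without A8 or without A10.

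Ttr (chromosome 18, start 20798337, end 20807378), which encodes the thyroxine carrier transthyretin and is the hallmark of choroid plexus epithelium, had a profile of its own. In S1 and S2 it was 57.8 and 59.1 FPKM in A1, 65.7 and 63.3 in A2, and 5.03 and 6.26 in A8. In cKO it was 2.30 and 1.81 FPKM in A4, 0.338 and 0.179 in A9, and 444 and 422 in A10. The cKO A numbers thus held both the highest and the lowest values, at 433 and 0.259 FPKM, a ratio of 1670. The A9 value rested on 7 reads in S1 and 6 in S2. Limma gave -1.32 on the log2 scale (standard error 2.16, adjusted p = 0.948), while the mean of Ctrl was 42.9 ± 32.4 FPKM and that of cKO 145 ± 250 (SD over 3 A numbers), so the log and linear scales differed in sign.

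The choroid plexus markers on a list of 16 genes were mostly low, with 7 reaching a mean of 1 FPKM. Their summed level was 144, 139 and 66.9 FPKM in A1, A2 and A8 and 30.6, 31.8 and 152 in A4, A9 and A10, and 0 of the 16 were at 0 in every library. Most of that sum was Enpp2, which oligodendrocytes also express, at 121, 121 and 57.2 FPKM in Ctrl and 19.2, 26.2 and 105 in cKO. Among the others, the anti-ageing hormone gene Kl was 3.68 FPKM in A10 and at most 0.56 elsewhere, the chloride channel gene Clic6 was 5.87 in A10, 3.26 in A1 and 1.13 in A2 and at most 0.182 elsewhere, and the folate receptor gene Folr1 was 6.66 in A10 and 0.977 in A9. Of the 16 markers, 12 were highest in A10, where Ttr was highest, a tally made after the values were seen. The other 4 were Enpp2, Otx2, Sostdc1 and Steap1. The share of all genes that were highest in A10 was not worked out, and most of the 16 markers averaged under 1 FPKM. Otx2 was 3.10 FPKM in A1 and 2.71 in A10, and Sostdc1 was 4.37 in A1, 3.48 in A10 and 3.47 in A4. The part of choroid plexus cells in the level of Ttr was not tested.

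**Figure D5:**
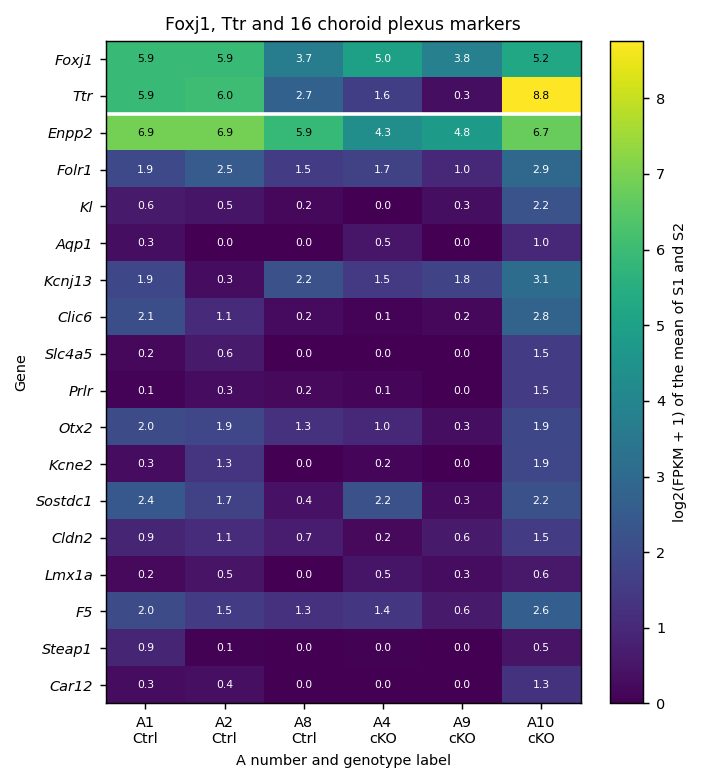
Heat map of log2(FPKM + 1) of the mean of S1 and S2 for Foxj1 and Ttr, above the white line, and for the 16 choroid plexus markers, below it, in the 6 A numbers. Ttr reaches its highest level in A10, as do Kl, Clic6 and Folr1, whereas Foxj1 is highest in A1 and A2.

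Other genes of the motile cilium, from lists of genes outside the 40, were set beside them. Of 53 tested genes of spokes, central pair and axoneme, 45 had A8 and A9 as the lowest pair and 22 had an r of at least 0.9 with Foxj1. Of 16 tested genes of further dyneins and docking factors the numbers were 11 and 7, and of 12 tested dynein assembly factors 7 and 3. The shares over all genes tested were 13.9% and 4.45%. Enkur, which encodes an axonemal scaffold protein, was 34.1, 32.2 and 0.404 FPKM in A1, A2 and A8 and 20.3, 6.96 and 21.4 in A4, A9 and A10. The inner arm light chain gene Dnali1 was 20, 23.6 and 9.46 FPKM in Ctrl and 11.9, 5.52 and 16.4 in cKO. In none of these 3 lists did a gene reach an unadjusted p under 0.05 between genotypes; 13 genes were higher and 40 lower in the first list, 3 and 13 in the second, and 3 and 9 in the third.

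Among 16 regulators that start multiciliated cell formation, 12 were tested. Of the 12, 3 had an r of at least 0.9 with Foxj1, against 4.45% of all other genes tested. The 3 were Ccno at 0.95, Myb at 0.96 and Trp73 at 0.95. Trp73, which encodes a p53 family member upstream of Foxj1, was 6.55, 5.65 and 0.659 FPKM in A1, A2 and A8 and 2.27, 0.953 and 1.79 in A4, A9 and A10. Myb was 3.56, 4.85 and 0.916 FPKM in Ctrl and 3.24, 0.78 and 2.89 in cKO. Mcidas, which starts multiciliation in differentiating cells, and Cdc20b were listed at 0 in all 12 libraries. Rfx4, which had the highest level of the list, ran between 27.9 FPKM in A2 and 37.6 in A10 and had an r of -0.63 with Foxj1. E2f5, next by level, ran between 9.25 FPKM in A2 and 16.5 in A8 and had an r of -0.82. The median r of the 12 tested regulators with Foxj1 was 0.52. No regulator passed the genotype test (smallest limma adjusted p = 0.862).

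The general ciliary transport genes, which primary cilia also need, had a narrower median span than the 40 genes in these libraries, and no test of that difference was made. Of 38 tested, 9 had an r of at least 0.9 with Foxj1, against 4.45% of all other genes tested. A8 and A9 were the lowest pair in 23 of the 38, against 13.9% of all genes tested. The median span of the transport genes between the highest and the lowest A number was 0.79 on the log2 scale. It was 2.17 for the 40 genes and 0.88 for all genes tested. The transport gene Ift52 averaged 8.36 ± 0.185 FPKM in Ctrl and 6.22 ± 0.675 in cKO (SD over 3 A numbers; limma: -0.38 on the log2 scale, standard error 0.14, adjusted p = 0.607). The transition zone gene Mks1 averaged 2.5 ± 0.517 FPKM in Ctrl and 4.29 ± 1.17 in cKO (limma: 0.58 on the log2 scale, standard error 0.24, adjusted p = 0.629). Neither passed the threshold.

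Markers of other cells were set beside these levels. The 15 astrocyte markers summed to 5150, 5680 and 6270 FPKM in A1, A2 and A8 and 6090, 6790 and 5930 in A4, A9 and A10, lowest in A1, and their median r with Foxj1 was -0.71. The 12 oligodendrocyte markers summed to 1100 to 2370 FPKM in Ctrl and 315 to 757 in cKO, and were lowest in A4, where the ependymal genes were intermediate; their median r with Foxj1 was 0.57. The 10 endothelial and mural markers summed to 119, 92.1 and 50.1 FPKM in Ctrl and 98.8, 68.3 and 89.9 in cKO. The sum was lowest in A8 and A9, and the median r of the 10 genes with Foxj1 was 0.77. A8 and A9 were the lowest pair in 4 of the 10 genes, against 13.9% of all genes tested. Rgs5, the most abundant of the 10, was lowest in A8 (18.4 FPKM) and A9 (28.3 FPKM), with an r of 0.82 with Foxj1. Pdgfrb, a pericyte receptor gene, was highest in A9 (29.7 FPKM, with 21.1 in A8) and had an r of -0.49. The 8 microglial markers summed to 13.5 to 19.1 FPKM in Ctrl and 20.6 to 34.4 in cKO, with no overlap, and P2ry12, a microglial receptor gene, had an unadjusted p of 0.00951 (limma: 1.26 on the log2 scale, adjusted p = 0.433). The 10 neuronal markers summed to 11 to 14.7 FPKM in Ctrl and 5.86 to 10.6 in cKO, also with no overlap. The 9 tanycyte markers summed to 48.2 to 61.3 FPKM over the 6 A numbers, and the 10 neural stem cell and neuroblast markers to 62.1 to 96.8. Of all these marker genes Rax, of tanycytes, was at 0 in every library. Recovered depth per A number, S1 and S2 together, was 51097893 reads in A8 and 45662085 in A9, against 45408357 to 57349146 in the other 4 A numbers. The part of other cell types in the shared pattern and in the genotype comparison was not tested.

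The genes outside the 40 whose profile was most like their mean standardised profile, among 5243 genes with an SD of at least 0.5 between A numbers, were Cgnl1, Hipk1, Cdr1os, Syt10, Kif27, Cfap46, Cfap298, Nudt4, Cfap61 and Fam183b, with r from 0.994 to 0.997 over the 6 A numbers. Cfap46, Cfap61 and Cfap298 are on the motile cilium lists above. Cdr1os is a long non-coding RNA, and the library kit does not mark strand, so its reads cannot be told apart from those of an overlapping gene on the other strand. The junction gene Cgnl1 was 3.34, 2.70 and 0.656 FPKM in A1, A2 and A8 and 2.09, 0.527 and 2.18 in A4, A9 and A10. The synaptotagmin gene Syt10 was 14.3, 10.9 and 2.20 FPKM in Ctrl and 7.64, 2.62 and 9.91 in cKO.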

How the data were processed

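The authors deposited 1 table of FPKM values, with gene length, for 56941 gene rows in 12 libraries; the submitters' processing notes name FastQC, STAR, featureCounts and DESeq2 without versions, and settings are not given in the sources used here. Per the labels, cDNA was made with the SMART-Seq V4 kit. Values multiplied by kilobases of length added up to 1000000 per library. Rows sharing a symbol (147 symbols) were summed. S1 and S2 were averaged as log2(FPKM + 1), which understates changes of low genes, and genes averaging 1 FPKM or more were tested with limma 3.58.1 in R 4.3.3 (eBayes with trend, two-sided, Benjamini-Hochberg, threshold 0.05). The fit was tested on simulated data with 200 changed genes among 17540. It called 0 of the 200 at a log2 effect of 1, 134 at 2 and 162 at 3, so changes of 1 or less would be missed. Recovery was not worked out for the ependymal and motile cilia genes alone. Their median standard error was above that of all genes, so these counts do not show how many larger changes in them would be found. Single genes were compared by an exact permutation test over 20 arrangements. Reads were recovered from FPKM steps (82.8% to 86.3% of genes above 0 came out within 0.05 of a whole read), and floors cover counting error only. Correlations, lists and motifs were described without tests, in Python 3.11.15.

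The members and lists were chosen with earlier results of these data known. Named genes were the 40 members, up to 3 genes per list at an unadjusted p under 0.05, the 2 most abundant per list, and the 10 most alike in profile; other list genes and the fold changes printed were chosen after their values were seen. Alternatives were another pseudocount (0.1), other filters, upper quartile scaling, eBayes without trend, the log2 of the mean FPKM, S1 or S2 alone, each A number left out, all 12 libraries with A number fitted as random, without and with the replicate block, and limma voom on recovered reads, chosen after seeing the data. Replicate numbers in the labels tell S1 from S2 within an A number, so they give no pairing of Ctrl with cKO; between A numbers, the S2 to S1 differences had an r of 0.133 to 0.19 over genes.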

Additional observations from a re-analysis of the deposited data

How the results depend on the processing

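None of the 40 genes passed the adjusted threshold in any of the 17 alternatives. Over all genes, the count of 0 became 112 with 12 libraries and the A number as a random effect, 80 with the replicate block added, and ran from 0 to 1 when A numbers were left out; it stayed 0 in the others. The cause was not tested. The median fold change of the 40 genes ran from -0.35 to -0.25 with all A numbers and from -0.90 to 0.12 with each left out. Under the filter of at least 5 FPKM, which 31 of them passed, it was -0.36. Leaving out an A number turned the sign of 5 to 20 of the 40 genes (20 without A9, 16 without A1, 8 without A2, 7 without A8 or A10, 5 without A4). Among the 13 of them whose fold change is printed singly, it turned that of Dnai2 (-0.29 to 0.50), Tekt4 (-0.65 to 0.87), Rfx2 (-0.29 to 0.19), Ccdc153 (-1.26 to 0.10) and Ttr (-3.92 to 0.30). The median r over pairs of the 40 genes ran from 0.86 to 0.92. The unadjusted p of Rfx3 was above 0.05 without trend, with S1 alone and without any A number other than A8. The 3 A numbers per genotype and the spread between them limit the genotype comparison; of the 480 values of these genes, 2 were at or under 3 reads.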
